A study of Mus musculus with 6 samples.

Results

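The Hox cluster genes are the 39 protein-coding genes whose symbol is Hoxa, Hoxb, Hoxc or Hoxd followed by a paralogue number, among 28584 genes listed in the expression table. They were taken by name alone, and no expression value entered the choice. RNA-seq was performed on 6 libraries of mouse ESCs at P10 (passage 10 in the test medium), 2 for each of 3 media, to ask whether oncostatin M (OSM) can take the place of leukemia inhibitory factor (LIF) in keeping the cells pluripotent. LIF and OSM are cytokines of the IL-6 family that signal through the shared receptor gp130. All 6 libraries came from 1 ESC line derived from a C57BL/6 × 129S6 blastocyst and first grown with serum and LIF on mitomycin C-treated mouse embryonic fibroblast (MEF) feeders. The cells then went into basic medium alone (-LIF-ESCs), basic medium with 1000 U/mL LIF (LIF-ESCs) or basic medium with 10 ng/mL OSM (OSM-ESCs). The basic medium contained fetal bovine serum, so serum was shared by all 6 libraries. Whether feeders were still present at P10 is not stated. The study describes the libraries of a group as biological replicates of this line without saying whether they were separate cultures, so p-values measure only the spread between libraries, which may be technical.

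Hox genes encode homeodomain transcription factors that give cells along the head-to-tail axis of the embryo their position. Within a cluster the paralogue number follows the order of the genes on the chromosome, and genes with low numbers are switched on earlier and reach further towards the head than genes with high numbers, a rule known as collinearity. In undifferentiated ESCs the clusters are mostly silent and covered by Polycomb marks, and retinoic acid, Wnt and FGF signals acting in part through Cdx factors open them during differentiation. Here paralogues 1 to 3 are called anterior (8 genes), 4 to 8 central (15 genes) and 9 to 13 posterior (16 genes).

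In the mm10 build the 11 Hoxa genes lie on the minus strand of chr6:52155590-52260880. The 10 Hoxb genes lie on the plus strand of chr11:96194316-96368256, the 9 Hoxc genes on the plus strand of chr15:102921103-103036852 and the 9 Hoxd genes on the plus strand of chr2:74668310-74765142. The clusters span 105, 174, 116 and 96.8 kb. The exons of several members overlap other genes on the annotation (GENCODE M21), and the strand setting of the read counting is not stated, so reads of such a pair cannot be told apart. The overlap covers 62.8% of the exon bases of Hoxd3 and 52.3% of those of Hoxd4. Most of this is with Gm28230, a gene on the same strand, and a smaller part is between Hoxd3 and Hoxd4 themselves. The overlap also covers 52.9% of Hoxb3 and 27.3% of Hoxb2 (both by Hoxb3os) and 35.0% of Hoxa11 (by Hoxa11os). It covers 27.1% of Hoxa3 (by several genes) and 20.4% of Hoxa7 (by Hoxaas3). Runs of 50 bases occurred in the exons of both genes 339 times for Hoxd3 and Hoxd4 and 119 times for Hoxc5 and Hoxc10. Between clusters the largest number of shared runs was 3, for Hoxa6 and Hoxb4.

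Promoter sequence is shown for 6 members so that anterior, central and posterior genes are each represented. They were chosen after their values were seen, and their log2 fold changes against -LIF-ESCs, from 0.54 in LIF-ESCs and 0.48 in OSM-ESCs (Hoxa2) to 1.83 and 1.93 (Hoxd13), do not reach either end of the family's range. RefSeq windows (GRCm38.p6, the assembly of mm10) of 250 bases before the annotated start were found for 22 of the 39 members, 24 windows in all, against 32851 windows for all genes. Hoxb8 (chr11:96281655-96281904, plus strand) and Hoxa5 (chr6:52204588-52204837, minus strand) stand for central members, and so do Hoxb4 (chr11:96318017-96318266, plus strand) and Hoxd8 (chr2:74704365-74704614, plus strand). Hoxd13 (chr2:74667975-74668224, plus strand) is posterior and Hoxa2 (chr6:52164832-52165081, minus strand) is anterior. Each sequence runs 5′ to 3′ towards its gene and lies outside annotated exons, and capitals mark matches to any of the 6 motifs searched on either strand.
Hoxa2: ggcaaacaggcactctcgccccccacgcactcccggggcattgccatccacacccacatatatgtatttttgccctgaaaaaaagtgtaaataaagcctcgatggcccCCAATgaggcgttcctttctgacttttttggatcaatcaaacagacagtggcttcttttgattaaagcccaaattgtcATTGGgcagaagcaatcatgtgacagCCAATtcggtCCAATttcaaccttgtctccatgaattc
Hoxb4: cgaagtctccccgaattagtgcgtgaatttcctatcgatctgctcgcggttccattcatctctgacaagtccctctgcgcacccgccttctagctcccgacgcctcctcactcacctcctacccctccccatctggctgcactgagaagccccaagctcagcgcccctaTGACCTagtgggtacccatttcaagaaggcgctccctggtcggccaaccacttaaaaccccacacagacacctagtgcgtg
Hoxa5: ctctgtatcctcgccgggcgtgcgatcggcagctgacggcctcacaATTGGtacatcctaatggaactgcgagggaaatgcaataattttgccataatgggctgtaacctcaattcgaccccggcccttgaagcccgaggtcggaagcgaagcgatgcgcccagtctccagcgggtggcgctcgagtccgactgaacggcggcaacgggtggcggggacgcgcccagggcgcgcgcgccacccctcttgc
Hoxb8: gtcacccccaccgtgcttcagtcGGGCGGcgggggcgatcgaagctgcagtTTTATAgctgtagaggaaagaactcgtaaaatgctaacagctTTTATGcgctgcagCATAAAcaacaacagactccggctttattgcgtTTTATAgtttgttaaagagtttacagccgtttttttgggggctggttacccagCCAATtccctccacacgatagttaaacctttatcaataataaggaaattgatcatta
Hoxd8: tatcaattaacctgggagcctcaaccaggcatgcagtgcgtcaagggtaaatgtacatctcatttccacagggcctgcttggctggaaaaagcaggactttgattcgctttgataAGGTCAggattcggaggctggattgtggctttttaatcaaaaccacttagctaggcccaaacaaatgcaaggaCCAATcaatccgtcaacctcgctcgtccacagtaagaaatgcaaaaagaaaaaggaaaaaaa
Hoxd13: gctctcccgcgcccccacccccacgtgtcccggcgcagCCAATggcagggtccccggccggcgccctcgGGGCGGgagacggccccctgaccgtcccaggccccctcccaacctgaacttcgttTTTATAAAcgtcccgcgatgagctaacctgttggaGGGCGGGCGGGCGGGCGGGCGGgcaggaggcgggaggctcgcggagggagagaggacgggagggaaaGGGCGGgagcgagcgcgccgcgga
The CCAAT box (CCAAT) was in 14 Hox windows (58.3%, against 33.8% of all windows) and the GC box (GGGCGG) in 10 (41.7% against 32.7%). A TATA box (TATAAA) was in 4 (16.7% against 12.4%), the core retinoic acid receptor motif (AGGTCA) in 6 (25.0% against 14%) and the Cdx motif (TTTATG) in 5 (20.8% against 10.8%). The STAT motif (TTCNNNGAA), named for the factors activated by LIF and OSM, was in 1 Hox window, that of Hoxd4 (4.17% against 7.02%). In the sequences above, Hoxa2 held 4 CCAAT boxes and Hoxd13 held 7 GC boxes, 5 of them in a single overlapping run. Hoxb8 held 2 Cdx motifs. Hox windows had a median of 12.5 CpG dinucleotides and 58.6% GC, against 6.0 and 52.4% over all windows. These matches describe the letters in the windows and say nothing of a factor bound there.

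Recovered depth was between 20712941 and 28994417 reads per library. Over all 18556 genes tested, 62.2% of the calls against -LIF-ESCs were higher in LIF-ESCs and 64.3% were higher in OSM-ESCs. When TPM was rescaled by the median ratio between libraries, these shares were 50.5% and 51.9%, and the median log2 fold change of all genes moved from 0.165 to 0.012 (LIF-ESCs) and from 0.182 to 0.013 (OSM-ESCs). The ESC label was checked with 12 pluripotent cell markers. Their summed level was 5154.9 to 5165.9 TPM in -LIF-ESCs, 7006.7 to 7089.1 TPM in LIF-ESCs and 6594.9 to 6595.2 TPM in OSM-ESCs. This sum does not show the level of each marker, and 6 of the 12 were called higher and 1 lower in each cytokine medium against -LIF-ESCs. Among all genes, 13.3% and 14.2% were called higher and 8.09% and 7.86% lower. By morphology and staining, the study describes its cultures without LIF or OSM as differentiated, with much less Oct4, Nanog and SSEA1. The -LIF-ESC group is thus not shown to be undifferentiated.

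Hox RNA was a small part of every library and was several times higher in both cytokine media. The summed level of the 39 genes was 15.3 and 15.0 TPM in the 2 -LIF-ESC libraries, 72.3 and 72.1 TPM in LIF-ESCs and 90.9 and 89.3 TPM in OSM-ESCs. Each group lay apart from the others. The means were 15.1 ± 0.173, 72.2 ± 0.111 and 90.1 ± 1.14 TPM (SD, n = 2), a ratio to -LIF-ESCs of 4.77 for LIF-ESCs and 5.95 for OSM-ESCs. With 2 libraries a group, the smallest two-sided p of an exact permutation test is 0.333, so such sums are given with their spread and no test. In recovered reads the family took 355 to 434 reads of a -LIF-ESC library, 1608 to 1704 of a LIF-ESC library and 2262 to 2679 of an OSM-ESC library. Because RNA was taken from whole cultures, a larger number of cells expressing a gene and more RNA of it per cell cannot be told apart.

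The make-up of the family also differed between media. Hoxb9, which helps pattern the thoracic skeleton, was the highest member in the 4 libraries of LIF-ESCs and OSM-ESCs, with 11.8% to 14.2% of the summed Hox TPM, and made up 4.72% and 1.39% in -LIF-ESCs. In the -LIF-ESC libraries, 6 and 10 members had no read. In LIF-ESCs 23 and 21 members and in OSM-ESCs 25 and 27 members reached 1 TPM, and each member had at least 1 read in all 4 of these libraries.

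**Figure D1:**
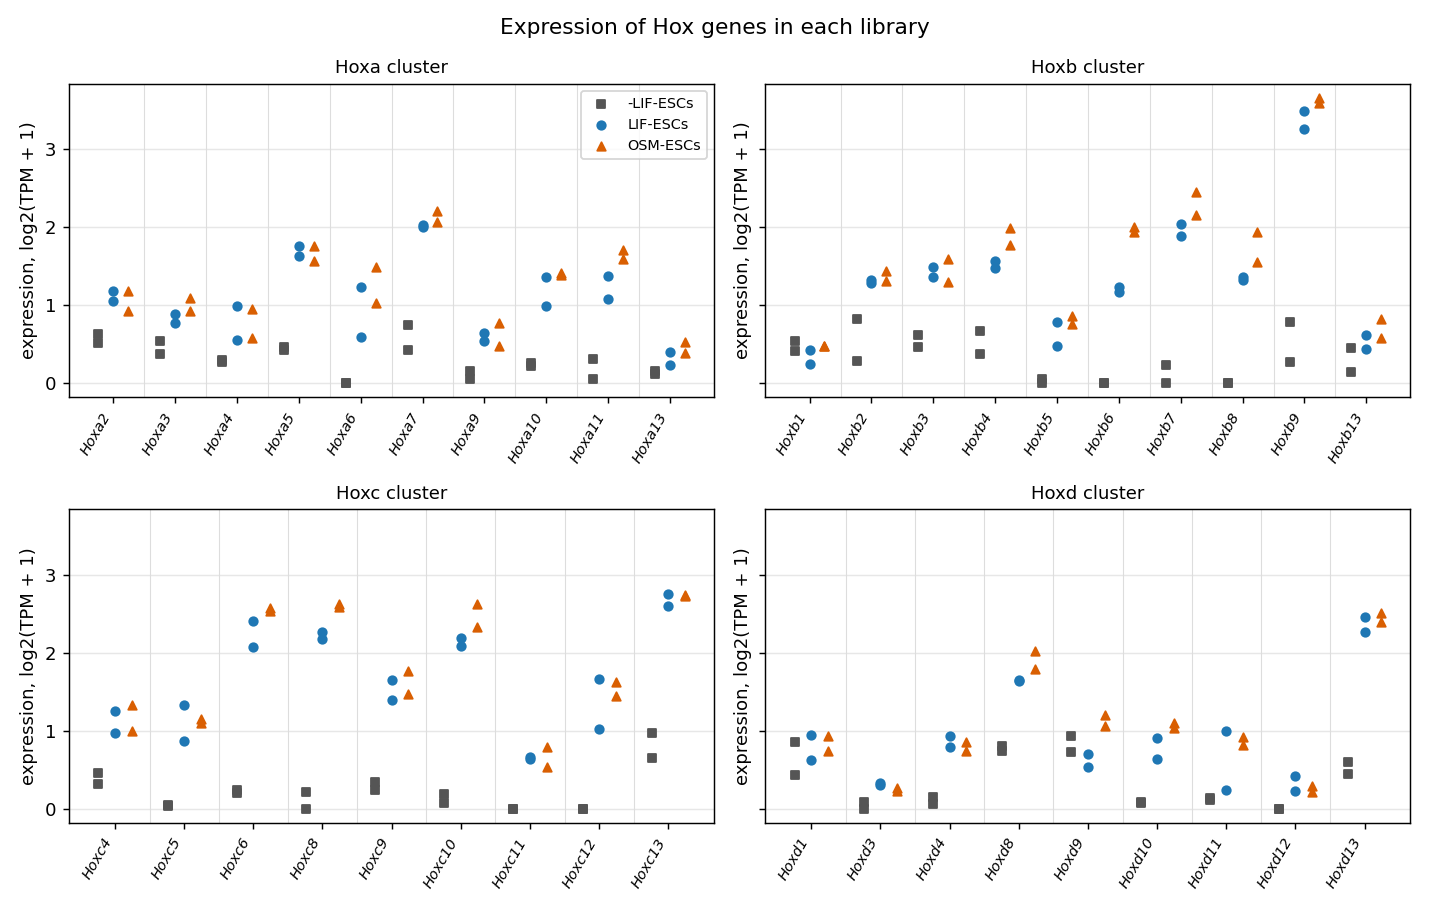
Level of the Hox genes shown as log2(TPM + 1), with 1 panel per cluster, genes in order of paralogue number and 1 point per library (squares for -LIF-ESCs, circles for LIF-ESCs, triangles for OSM-ESCs). Hoxb9 stands highest in the LIF-ESC and OSM-ESC libraries, at 8.53 to 11.6 TPM.

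The 4 clusters differed in how far they stood above -LIF-ESCs. The Hoxc cluster sum was 1.47 and 1.87 TPM in -LIF-ESCs, 22.5 and 22.7 TPM in LIF-ESCs and 27.8 and 26.6 TPM in OSM-ESCs, ratios of 13.5 and 16.3. The Hoxb sum was 3.46 and 1.67, 19.8 and 22.8, and 28.5 and 28.0 TPM in the same order, ratios of 8.32 and 11. For Hoxd the sums were 3.06 and 2.47, 11.2 and 9.11, and 12.5 and 12 TPM, ratios of 3.67 and 4.42. The Hoxa cluster had the smallest ratios of sums, 2.23 and 2.75, from 7.28 and 9.01 TPM in -LIF-ESCs to 18.8 and 17.5 TPM in LIF-ESCs and 22 and 22.7 TPM in OSM-ESCs. A sum follows its highest members, and per member Hoxa did not stand lowest in both media. The median fold of recovered reads pooled over a group was 5.11 and 5.50 for Hoxa and 5.87 and 4.80 for Hoxd. For Hoxb it was 9.87 and 13.2 and for Hoxc 10.2 and 12.4, with members without a read in -LIF-ESCs taken at a lower bound. In each of the 4 clusters, both OSM-ESC libraries lay above both LIF-ESC libraries and these above both -LIF-ESC libraries.

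By position, the anterior paralogues stood nearest to their level in -LIF-ESCs. Their sum was 8.36 and 8.68 TPM in -LIF-ESCs, 12.4 and 12.1 TPM in LIF-ESCs and 14 and 15.4 TPM in OSM-ESCs, ratios of 1.44 and 1.72. This sum too follows its highest members, and the median fold per anterior member in pooled reads was larger, 2.05 and 2.29. Central paralogues went from 3.09 and 2.89 TPM to 27.7 and 27.8 TPM in LIF-ESCs and 35.7 and 36.7 TPM in OSM-ESCs, ratios of 9.28 and 12.1. Posterior paralogues went from 3.82 and 3.45 TPM to 32.2 and 32.2 TPM and to 41.2 and 37.2 TPM, ratios of 8.87 and 10.8. Read by paralogue number, the ratio for LIF-ESCs was 2.70 for group 2, 3.16 for group 3, 4.40 for group 4, 9.70 for group 5 and 36.8 for group 6, the largest of the groups that had a read in -LIF-ESCs. It lay between 6.66 (group 13) and 16.4 (group 10) for the other groups above 6. In OSM-ESCs the ratios ran from 2.74 (group 2) to 10.0 (group 5), reached 56.5 in group 6 and lay between 7.26 (group 13) and 22.3 (group 10) for the others above 6. In -LIF-ESCs the group 6 sum rests on Hoxc6 alone, with 4 reads in each library, so both group 6 ratios carry a large counting error. Group 12, with only Hoxc12 and Hoxd12, was at 0 in both -LIF-ESC libraries and at 1.85 ± 0.675 and 2.10 ± 0.299 TPM (SD, n = 2) in LIF-ESCs and OSM-ESCs. The highest sums in the cytokine media belonged to group 9 (12.3 ± 1.61 and 15.1 ± 1.25 TPM) and group 13 (10.2 ± 0.976 and 11.1 ± 0.542 TPM). In LIF-ESCs the group 9 sums, 11.2 and 13.4 TPM, were only just clear of the group 13 sums, 10.9 and 9.51 TPM.

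**Figure D2:**
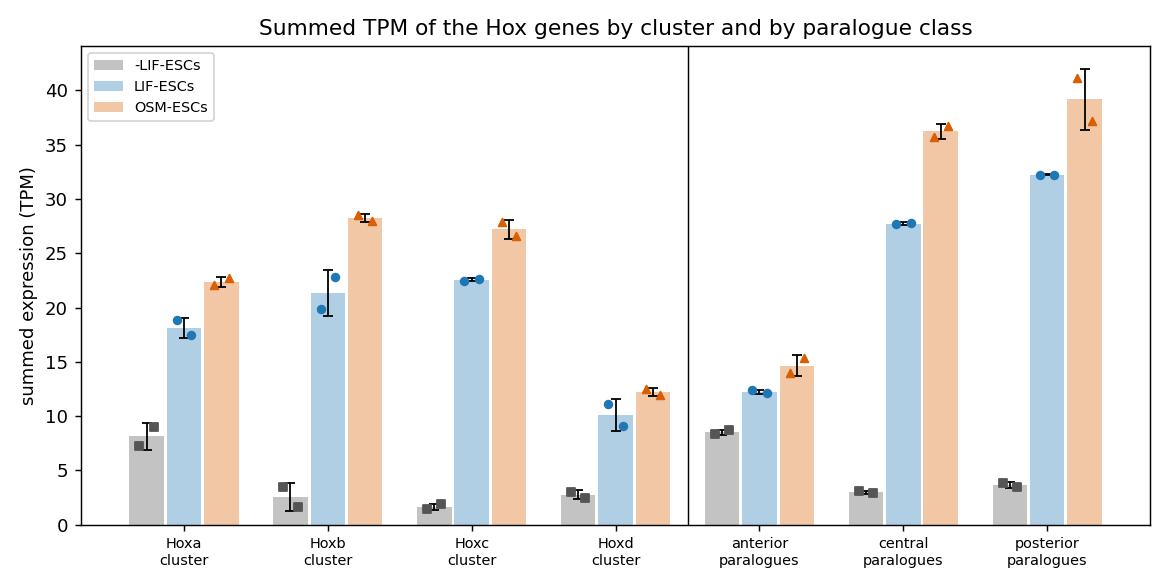
Summed TPM of the 4 clusters and of the anterior, central and posterior paralogues in each library, with points for libraries, bars for the mean of 2 and whiskers for the SD. The Hoxc sum goes from under 2 TPM in -LIF-ESCs to 22.5 TPM or more in the other media, while the anterior sum goes from 8.36 to at most 15.4 TPM.

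Differences were tested with limma on log2(TPM + 1) across all genes, and a gene was called at an adjusted p under 0.05 with a log2 fold change of at least 1. On this scale the change of genes near or below 1 TPM is understated. Of the 39 members, 26 passed the filter of 1 TPM in 2 libraries, and 25 of these passed only because of their level in LIF-ESCs or OSM-ESCs, so a count over these 26 is no support for a direction. Without the filter, all 39 could be tested. Then 16 were called higher in LIF-ESCs than in -LIF-ESCs and 0 lower, where 8.6% of all genes were called higher, and 19 were called higher in OSM-ESCs and 0 lower, where 9.15% of all genes were. With the adjusted p alone as the rule, 30 of the 39 were higher in each comparison, where 27.7% (LIF-ESCs) and 28.5% (OSM-ESCs) of all genes were. At an unadjusted p under 0.05, 31 and 33 were higher and none was lower, where 30.9% and 31.6% of all genes were higher. The 39 members had a median log2 fold change of 0.87 with LIF and 0.99 with OSM, beside 0.05 and 0.06 over all genes. By class, 0 of 8 anterior, 9 of 15 central and 7 of 16 posterior members were called higher with LIF, and 0, 11 and 8 with OSM. For the anterior members the count at an unadjusted p under 0.05 was 5 in each comparison, and voom on recovered reads called 3 and 4. By cluster the calls were 3 of 11 Hoxa, 5 of 10 Hoxb, 7 of 9 Hoxc and 1 of 9 Hoxd members with LIF, and 5, 5, 7 and 2 with OSM. Both comparisons use the same -LIF-ESC libraries and are given side by side, not as 2 independent results.

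With the filter the counts were also 16 and 19 called higher, where 13.3% and 14.2% of all genes were, and 0 called lower, where 8.09% and 7.86% were. With limma's voom on the recovered reads, added after seeing the data, 30 and 31 of the 39 were called higher, where 14.1% and 15% of all genes were. Counted by overlap alone, 34 of the 39 had both LIF-ESC libraries above both -LIF-ESC libraries (39.2% of all genes did), and 1, Hoxd9, had both below (29%). The other 4, Hoxb1, Hoxb13 and Hoxd1 among them, overlapped. For OSM-ESCs, 37 lay above (40.2% of all genes) and 0 below (28.7%), and Hoxb1 and Hoxd1 overlapped. Recovered reads pooled over the 2 libraries of a group and divided by depth gave a median fold of 5.90 in LIF-ESCs and 6.91 in OSM-ESCs over the 39 members. This takes the 6 members without a read in -LIF-ESCs (Hoxa6, Hoxb6, Hoxb8, Hoxc11, Hoxc12 and Hoxd12) at the bound that 3 reads over the group would give. Such a bound leaves out the counting error of the cytokine group. The medians were 2.05 and 2.29 for anterior, 8.94 and 8.04 for central and 6.85 and 8.27 for posterior members. A further 5 members had 1 to 3 reads in the -LIF-ESC libraries together, and their folds carry the wide counting intervals shown in the plot of folds by paralogue number.

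**Figure D3:**
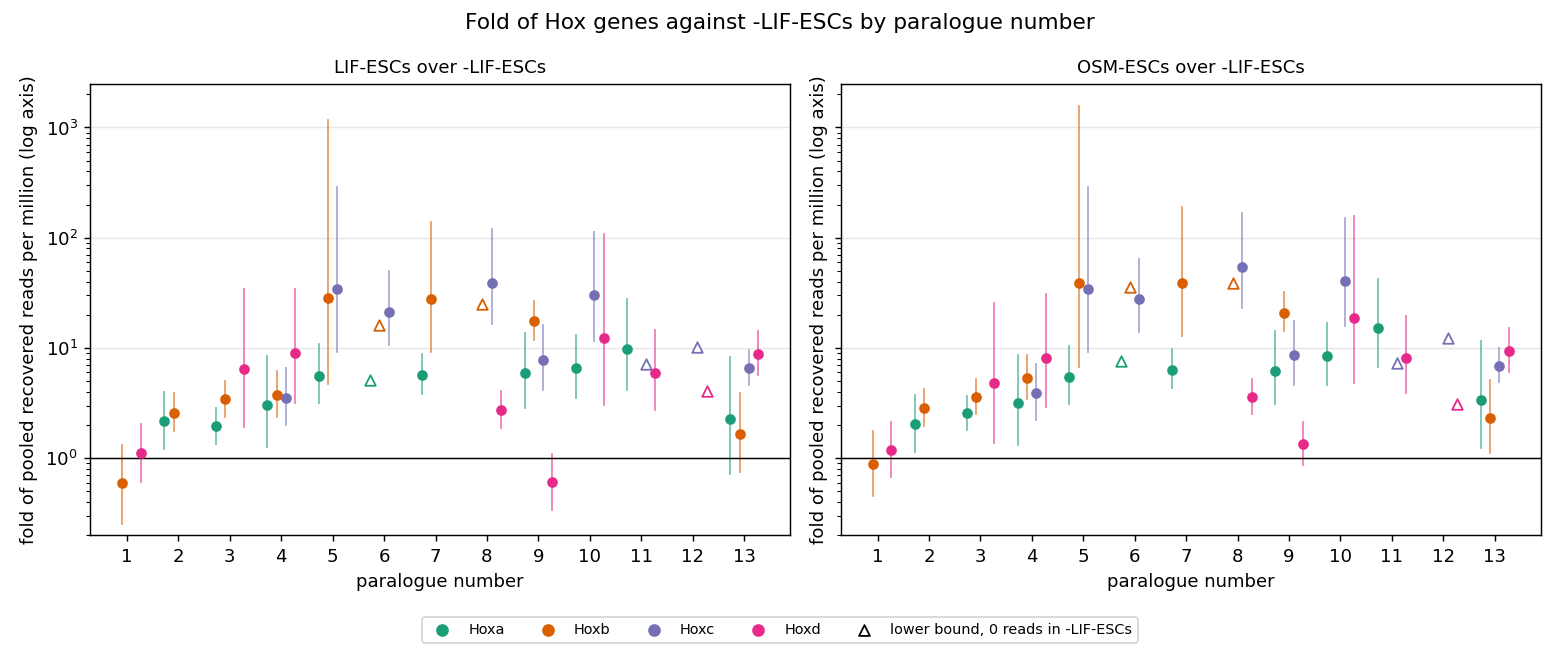
Fold of pooled recovered reads, scaled to depth, in LIF-ESCs (left) and OSM-ESCs (right) over -LIF-ESCs on a log axis, against paralogue number, with colour for the cluster. Lines are 95% intervals for counting error only and open triangles are lower bounds for the 6 members without a read in -LIF-ESCs. Folds lie near 1 for Hoxd1 (1.11 and 1.18) and reach 38.8 and 54.0 for Hoxc8.

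Among the anterior paralogues, none was called in either comparison. Hoxb1, which marks rhombomere 4 of the hindbrain, and Hoxd1 had 4 to 12 and 6 to 17 reads per library, overlapped between groups, and had folds in pooled reads of 0.591 and 0.891 (Hoxb1) and 1.11 and 1.18 (Hoxd1).

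Hoxa2, which patterns the second pharyngeal arch, was at 0.547 and 0.424 TPM in -LIF-ESCs, 1.26 and 1.06 TPM in LIF-ESCs and 0.892 and 1.25 TPM in OSM-ESCs. Hoxb2, active in the hindbrain, was at 0.760 and 0.216, 1.44 and 1.49, and 1.48 and 1.70 TPM. Hoxb3, also a hindbrain gene, was at 0.374 and 0.531, 1.55 and 1.80, and 1.44 and 2.00 TPM. Each of these 3 genes lay above -LIF-ESCs in all 4 cytokine libraries, with log2 fold changes of 0.54 and 0.48 (Hoxa2), 0.75 and 0.82 (Hoxb2) and 0.88 and 0.90 (Hoxb3), under the fold limit. Hoxb2 was called in both comparisons without -LIF-ESC replicate 1 (1.02 and 1.09), and Hoxb3 was called in OSM-ESCs without OSM-ESC replicate 1 (1.05). Part of the exon sequence of Hoxb2 and Hoxb3 is shared with Hoxb3os, which was higher too (given with the noncoding genes). Hoxa3, a thymus and parathyroid gene, and Hoxd3 did not pass the filter.

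Of the central Hoxa members, Hoxa5 and Hoxa7 rose in both media. Hoxa5, needed for the lung and airway, was at 0.376 and 0.344 TPM in -LIF-ESCs, 2.10 and 2.36 TPM in LIF-ESCs and 1.95 and 2.37 TPM in OSM-ESCs. It rose by 1.25 (SE 0.13, limma adjusted p = 0.000641) and 1.21 (SE 0.13, 0.000702) on the log2 scale, and its LIF-ESC and OSM-ESC libraries overlapped. Hoxa7, a trunk gene, was at 0.338 and 0.673, 3.00 and 3.08, and 3.17 and 3.61 TPM, and rose by 1.43 and 1.55. Hoxa6 had no read in -LIF-ESCs and was at 1.34 and 0.507 TPM in LIF-ESCs and 1.81 and 1.04 TPM in OSM-ESCs, at least 5.11-fold and 7.62-fold higher in pooled reads. The log2 fold change in LIF-ESCs was 0.91, not called (1.23 and called without LIF-ESC replicate 2), and 1.26 in OSM-ESCs, called except without OSM-ESC replicate 1 (1.03). The library left out decides whether this gene, with 4 to 16 reads in each cytokine library, passes. Hoxa4, below the filter, had a log2 fold change of 0.49 in each medium and was not called (limma adjusted p = 0.101 and 0.102 without the filter).

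Of the posterior Hoxa genes, Hoxa10 and Hoxa11 act in the uterus and the limb. Hoxa10 was at 0.189 and 0.164 TPM in -LIF-ESCs, 1.56 and 0.983 TPM in LIF-ESCs and 1.60 and 1.66 TPM in OSM-ESCs. In LIF-ESCs the difference of 0.94 was under the limit (1.12 and called without LIF-ESC replicate 2), and it rose by 1.16 in OSM-ESCs. Hoxa11 was at 0.0386 and 0.235, 1.58 and 1.11, and 2.25 and 2.02 TPM, with the 3 groups apart. It rose by 1.05 in LIF-ESCs and 1.47 in OSM-ESCs, but in LIF-ESCs it was under the limit without -LIF-ESC replicate 1 (0.92), without LIF-ESC replicate 1 (0.90) and with rescaled TPM (0.997). The antisense gene Hoxa11os covers 35.0% of its exon bases. Hoxa4, Hoxa9 and Hoxa13 did not pass the filter.

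The Hoxb cluster held the member with the largest log2 fold change. Hoxb9 was at 0.721 and 0.209 TPM in -LIF-ESCs, 8.53 and 10.2 TPM in LIF-ESCs and 11.6 and 11 TPM in OSM-ESCs, with the groups apart. It rose by 2.84 (SE 0.19, limma adjusted p = 0.000108) in LIF-ESCs and by 3.09 (SE 0.19, 7.93e-05) in OSM-ESCs. In pooled reads this was 17.4-fold (95% counting interval 11.7 to 26.9) and 21-fold (14.2 to 32.4). Hoxb8, a trunk gene known for its use in holding myeloid progenitors in culture, had no read in -LIF-ESCs. It had 37 and 37 reads in LIF-ESCs (1.5 and 1.56 TPM) and 75 and 62 reads in OSM-ESCs (2.82 and 1.94 TPM). This was at least 25.2-fold and 38.7-fold higher, and the gene rose by 1.34 and 1.74 on the log2 scale. Its promoter window, printed above, carries 2 Cdx motifs.

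Hoxb7 and Hoxb6, the neighbours of Hoxb8, are trunk genes too. Hoxb7 was at 0.172 and 0 TPM in -LIF-ESCs, 2.69 and 3.09 TPM in LIF-ESCs and 3.46 and 4.43 TPM in OSM-ESCs, and rose by 1.84 and 2.19. Hoxb6 had no read in -LIF-ESCs and was at 1.25 and 1.35 TPM in LIF-ESCs and 2.82 and 2.98 TPM in OSM-ESCs, so that the OSM-ESC libraries lay well above the LIF-ESC libraries. It rose by 1.20 (SE 0.13, limma adjusted p = 0.000598) and 1.96 (SE 0.13, 9.86e-05) and was at least 16.0-fold and 35.8-fold higher in pooled reads. Hoxb4, known for expanding blood stem cells, was at 0.585 and 0.293, 1.79 and 1.94, and 2.97 and 2.41 TPM. It rose by 1.00 in LIF-ESCs, at the limit, and by 1.36 in OSM-ESCs. The LIF-ESC call was lost without -LIF-ESC replicate 2 (0.85), without LIF-ESC replicate 2 (0.96) and with rescaled TPM (0.93). Hoxb5 and Hoxb13 did not pass the filter.

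The Hoxc cluster had the largest share of members called. Hoxc8, a thoracic gene also active in motor neurons, was at 0.156 and 0 TPM in -LIF-ESCs, 3.5 and 3.80 TPM in LIF-ESCs and 5.17 and 4.98 TPM in OSM-ESCs, with no overlap of groups. It rose by 2.11 (SE 0.12, limma adjusted p = 7.04e-05) and 2.50 (SE 0.12, 4.03e-05). Its fold in pooled reads, 38.8 (95% counting interval 16.3 to 121) and 54.0 (22.9 to 168), was the largest of the family apart from the genes given only as bounds. Hoxc6, a thoracic gene, was at 0.147 and 0.179, 4.29 and 3.22, and 4.77 and 4.96 TPM, and rose by 2.02 and 2.34. Hoxc10, active in the lumbar cord and hind limb, was at 0.139 and 0.0563, 3.24 and 3.54, and 5.19 and 4.02 TPM, and rose by 2.00 and 2.34. For both genes all 4 cytokine libraries lay far above -LIF-ESCs, and the OSM-ESC libraries above the LIF-ESC libraries.

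Hoxc5 shares 166 exon bases with Hoxc10 on the annotation. It was at 0.0286 and 0.0348 TPM (1 read each) in -LIF-ESCs, 1.52 and 0.825 TPM in LIF-ESCs and 1.22 and 1.15 TPM in OSM-ESCs. It rose by 1.06 and 1.08, and the LIF-ESC call was lost without LIF-ESC replicate 1 (0.82). Hoxc4 was at 0.241 and 0.377, 0.955 and 1.38, and 1.00 and 1.51 TPM, with log2 fold changes of 0.72 and 0.78, under the limit. In these 2 genes, which lie at the anterior end of the cluster, the LIF-ESC and OSM-ESC libraries overlapped.

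Hoxc9, which sets thoracic motor neuron identity, was at 0.182 and 0.265 TPM in -LIF-ESCs, 1.62 and 2.14 TPM in LIF-ESCs and 2.40 and 1.76 TPM in OSM-ESCs, and rose by 1.23 and 1.33. Hoxc12 had no read in -LIF-ESCs and was at 1.03 and 2.15 TPM in LIF-ESCs and 1.73 and 2.08 TPM in OSM-ESCs. It rose by 1.34 and 1.54 and was at least 10.2-fold and 12.4-fold higher in pooled reads. Hoxc13, a regulator of hair keratins, was at 0.574 and 0.961, 5.72 and 5.05, and 5.63 and 5.70 TPM. It rose by 1.86 (SE 0.14, limma adjusted p = 0.000160) and 1.92 (SE 0.14, 0.000140), and the 2 cytokine media overlapped. Hoxc11 did not pass the filter. It had no read in -LIF-ESCs and 10 to 15 reads in each other library, at least 7.15-fold and 7.34-fold higher.

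In the Hoxd cluster, 5 of the 9 members were below the filter. It had the fewest calls on log2(TPM + 1), 1 with LIF and 2 with OSM, but voom on recovered reads called 7 of 9 in each comparison, beside 6 (LIF) and 7 (OSM) of 11 for Hoxa, 8 of 10 for Hoxb and 9 of 9 for Hoxc. Hoxd13, which shapes the digits, was at 0.356 and 0.519 TPM in -LIF-ESCs, 4.46 and 3.79 TPM in LIF-ESCs and 4.66 and 4.25 TPM in OSM-ESCs. It rose by 1.83 (SE 0.13, limma adjusted p = 0.000126) and 1.93 (SE 0.13, 0.000105), and the LIF-ESC and OSM-ESC libraries overlapped. Hoxd8 was at 0.676 and 0.744, 2.14 and 2.10, and 2.45 and 3.06 TPM. The LIF-ESC difference, 0.87 on the log2 scale, was under the limit, and it rose by 1.13 in OSM-ESCs. Hoxd10, a lumbar gene, was at 0.0486 and 0.0592 TPM (1 read each), 0.880 and 0.549 TPM, and 1.14 and 1.04 TPM. Its log2 fold changes of 0.70 and 0.99 were under the limit, and in pooled reads it was 12.3-fold (95% counting interval 3.04 to 107) and 18.6-fold (4.86 to 159) higher.

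Hoxd9 was the 1 member with both LIF-ESC libraries below both -LIF-ESC libraries, while Hoxb1 had folds below 1 in both media but overlapped. Hoxd9 was at 0.910 and 0.654 TPM in -LIF-ESCs, 0.449 and 0.623 TPM in LIF-ESCs and 1.30 and 1.08 TPM in OSM-ESCs. Its OSM-ESC libraries lay above both -LIF-ESC libraries. Neither difference passed the test, with log2 fold changes of -0.21 (SE 0.16, limma adjusted p = 0.291) and 0.30 (SE 0.16, 0.156). Its neighbours on either side, Hoxd8 and Hoxd10, had higher values in both media, and no other annotated gene overlaps its exons.

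**Figure D4:**
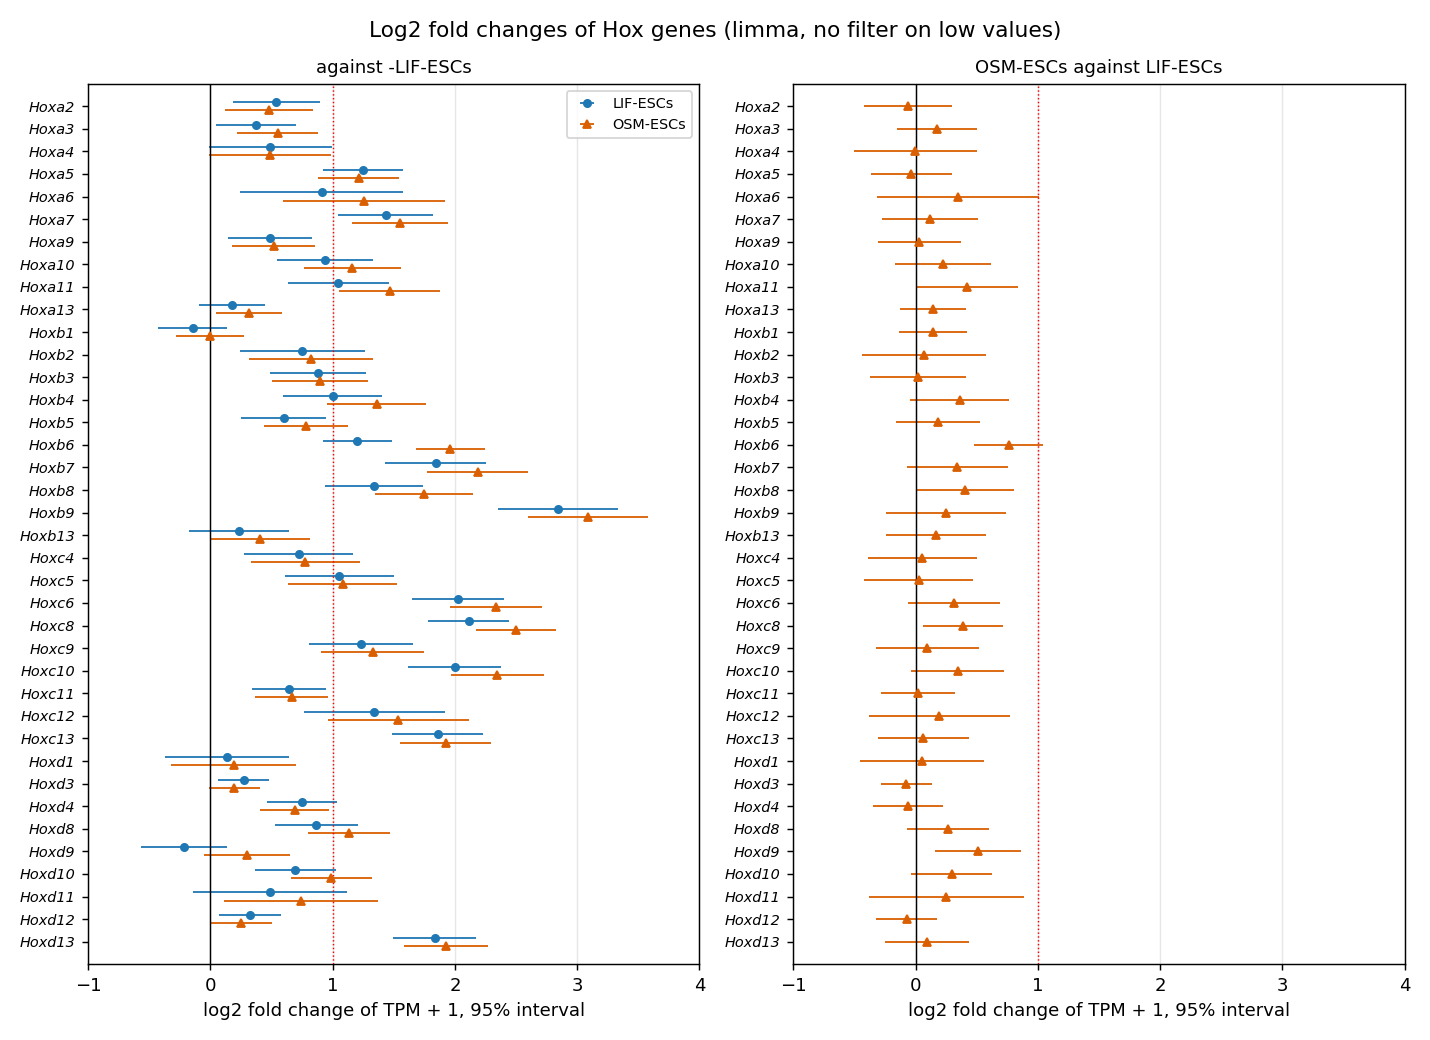
Log2 fold change with its 95% interval from limma on log2(TPM + 1) for the Hox genes shown without the filter on low values, for LIF-ESCs and OSM-ESCs against -LIF-ESCs (left) and OSM-ESCs against LIF-ESCs (right). The vertical lines mark 0 and the call limit of 1. Hoxb9 has the largest values, 2.84 and 3.09, and the intervals of Hoxd9 against -LIF-ESCs cover 0.

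The other members (Hoxa3, Hoxa4, Hoxa9, Hoxa13, Hoxb1, Hoxb5, Hoxb13, Hoxc11, Hoxd1, Hoxd3, Hoxd4, Hoxd11 and Hoxd12) stayed at or under 1.12 TPM in all 6 libraries. Hoxd4 was at 0.114 and 0.0463, 0.734 and 0.907, and 0.810 and 0.674 TPM. Its values are whole reads only at an exon length of 2321 to 2325 bases instead of the annotated 2948, and its recovered reads were 3 and 1 in -LIF-ESCs and 16 to 19 in the other libraries. Hoxb5 had 1 read in all in -LIF-ESCs and 10 to 23 in each other library, a fold of 28.6 and 38.9 with counting intervals from 4.73 and 6.65 upwards. Hoxd11 was at 0.987 TPM in 1 LIF-ESC library and 0.184 TPM in the other, the widest gap within a group among these genes, and at 0.0839 to 0.102 TPM in -LIF-ESCs and 0.763 to 0.893 TPM in OSM-ESCs. Hoxa13, a limb gene, and Hoxb13, a prostate gene, had folds of 2.25 and 3.39 and of 1.67 and 2.31, lower than those of Hoxc13 (6.56 and 6.91) and Hoxd13 (8.77 and 9.43). Paralogues of group 13 thus spanned a wide range, as did group 9, where the folds were 17.4 and 21 for Hoxb9, 7.80 and 8.54 for Hoxc9, 5.90 and 6.21 for Hoxa9 and 0.613 and 1.35 for Hoxd9.

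Between the 2 cytokine media no member was called by limma on log2(TPM + 1). In OSM-ESCs against LIF-ESCs, 0 of the 26 tested members were called higher (0.0323% of all genes were) and 0 lower (0.0485%), and 0 of the 39 were called higher without the filter (0.0455%). At an unadjusted p under 0.05, 4 of 26, or 6 of 39 without the filter, were higher and none was lower, where 9.8% and 7.22% of all genes were higher. With voom on recovered reads 1 of 39 was called higher (0.0999% of all genes). The summed Hox level was 1.25 times as high in OSM-ESCs as in LIF-ESCs, and the ratio was 1.23 for Hoxa, 1.32 for Hoxb and 1.21 for both Hoxc and Hoxd. Of the 39 members, 17 had both OSM-ESC libraries above both LIF-ESC libraries (21.4% of all genes did), 1, Hoxd3, had both below (17.4%), and 21 overlapped. The median log2 difference of the 39 was 0.17, beside 0.0012 over all genes, and the median fold of pooled reads was 1.28.

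Hoxb6 showed the largest of these differences. Its log2 difference was 0.76 (SE 0.13, limma adjusted p = 0.0838), its fold in pooled reads was 2.24 (95% counting interval 1.59 to 3.20), and it was the 1 member called with voom (log2 difference 1.14, adjusted p = 0.0245). The OSM-ESC and LIF-ESC libraries of Hoxc8 were also apart, with a log2 difference of 0.39 (limma adjusted p = 0.247). For Hoxd9 the difference was 0.51 (SE 0.16, limma adjusted p = 0.246) and the fold 2.21 (1.32 to 3.84). At the posterior end of the clusters the folds were 1.51 (0.688 to 3.48) for Hoxa13, 1.38 (0.746 to 2.63) for Hoxb13, 1.05 (0.888 to 1.25) for Hoxc13 and 1.07 (0.885 to 1.31) for Hoxd13. These 4 intervals cover counting error only, and each includes 1.

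Some noncoding genes inside or beside the clusters were also called higher. Of 17 listed, 11 were in the table and 8 passed the filter, of which 2 were called higher in LIF-ESCs, 5 in OSM-ESCs and none lower, with a median log2 fold change of 0.77 and 1.12. Hoxaas3, Hoxb3os, Hoxb5os, Hoxa11os and Mir196b passed the filter only through their level in LIF-ESCs or OSM-ESCs, so these counts are no support for a direction. Halr1 (chr6:52102949-52113684, plus strand), a retinoic acid-induced transcript beside the Hoxa cluster, was at 1.62 and 2.63 TPM in -LIF-ESCs, 122 and 119 TPM in LIF-ESCs and 114 and 109 TPM in OSM-ESCs. It rose by 5.30 (SE 0.15, limma adjusted p = 8.96e-06) and 5.19 (SE 0.15, 8.87e-06), and its level alone was above the sum of all 39 Hox genes in those media. Hoxb5os had no read in -LIF-ESCs, was at 1.23 and 1.43, and 1.56 and 2.25 TPM, and rose by 1.22 and 1.53. Hoxb3os had log2 fold changes of 0.93 and 1.02 and Hoxa11os of 0.65 and 1.23, called in OSM-ESCs, and neither was called between the media. Mir196b rested on 0 to 3 reads per library. Hotairm1, in the Hoxa cluster, was at 6.03 and 8.70 TPM in -LIF-ESCs, 12 and 11.8 TPM in LIF-ESCs and 14.8 and 15.0 TPM in OSM-ESCs, differences of 0.64 and 0.94 that were under the limit. Hotair, in the Hoxc cluster, was at 0 in all libraries but 1 of LIF-ESCs, with 3 reads.

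Genes known to act upstream of the clusters did not move as a group. Of 11 Cdx and axial genes 9 were tested. Against -LIF-ESCs the calls were 1 up and 5 down with LIF and 2 up and 5 down with OSM, and the median log2 fold changes were -1.42 and -1.18. Shares called over all genes were 13.3% and 14.2% higher and 8.09% and 7.86% lower, which applies to the lists below too. Cdx1 was at 2.47 and 2.39 TPM in -LIF-ESCs, 9.32 and 10.6 TPM in LIF-ESCs and 13 and 12.9 TPM in OSM-ESCs, and rose by 1.67 and 2.02. Its relative Cdx2, also a trophoblast gene, was at 4.57 and 3.66, 0.236 and 0.0490, and 0.657 and 0.693 TPM and fell, with log2 fold changes of -2.16 and -1.61. Fgf8, a ligand of the tail bud, fell (-5.73 and -5.44), from 75.0 and 76.3 TPM to under 1 TPM in each of the other 4 libraries. Evx1, which lies next to the Hoxa cluster, fell too (-1.42 and -1.18).

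Among retinoid genes, 14 of 19 were tested, with 2 up and 2 down under LIF and 4 up and 2 down under OSM (medians 0.14 and 0.12). The receptor Rarg rose by 2.01 and 1.79, and Rdh10, which makes retinal for retinoic acid synthesis, fell (-1.44 and -1.20). Of 24 Polycomb and Trithorax genes, which hold Hox clusters silent or active, 23 were tested. In LIF-ESCs 7 were called higher and in OSM-ESCs 6, with none called lower (medians 0.32 and 0.28). Over all genes, 13.3% and 14.2% were called higher and 8.09% and 7.86% lower. By the adjusted p alone, 15 and 14 were higher and 4 were lower in each comparison, Ezh1 (-0.77 and -0.87) among them. Bmi1, a subunit of Polycomb repressive complex 1, rose by 2.24 and 2.21. The smallest calls were Mtf2 (1.01) in LIF-ESCs and the demethylase Kdm6a (1.00) in OSM-ESCs.

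Of 9 Hox cofactors, the homeodomain partners that Hox proteins bind DNA with, 8 were tested. None was called higher and 1 was called lower in each comparison. Median log2 fold changes of the cofactors were -0.03 and 0.10. Neighbouring genes outside the clusters did not share one direction either, as 9 of 13 were tested, with 2 higher and 2 lower in each comparison. Skap2, next to the Hoxa cluster, rose by 1.26 and 1.04, and Calcoco2, near the Hoxb cluster, fell (-2.32 and -2.24).

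**Figure D5:**
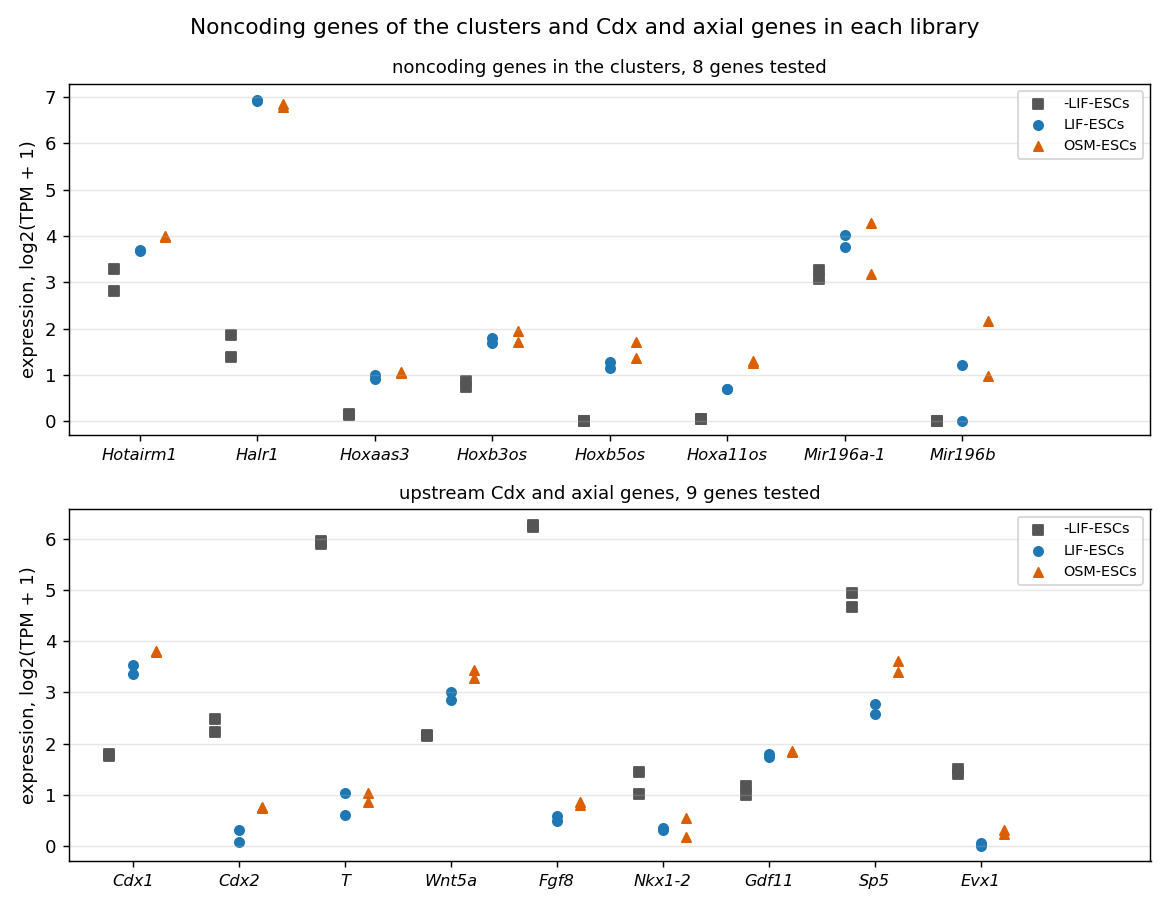
Level as log2(TPM + 1) in each library for all tested noncoding genes of the clusters (top) and Cdx and axial genes (bottom), with 1 point per library. Halr1 and Cdx1 are higher in LIF-ESCs and OSM-ESCs, and Cdx2, T and Fgf8 are lower.

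Markers of another cell type moved with the Hox genes. Fibroblasts, the feeder cells of this line's earlier culture, are known to express Hox genes by their site of origin. Of 20 fibroblast markers 19 were tested, 16 were called higher in each of LIF-ESCs and OSM-ESCs against -LIF-ESCs and none was called lower (median log2 fold changes of 2.00 and 2.46). Of all genes, 13.3% and 14.2% were called higher and 8.09% and 7.86% lower. A marker could pass the filter through LIF-ESCs or OSM-ESCs alone, as Lox did, so this count is no support for a direction. Their summed level was 142.8 to 152.0 TPM in -LIF-ESCs, 492.9 to 499.6 TPM in LIF-ESCs and 682.4 to 693.9 TPM in OSM-ESCs, the same order of groups as the Hox sum. Lox, a collagen cross-linking enzyme, was at 0.0735 and 0.0894 TPM in -LIF-ESCs, 112 and 112 TPM in LIF-ESCs and 155 and 149 TPM in OSM-ESCs, and rose by 6.71 and 7.14. The smallest call in LIF-ESCs was Loxl1 (1.18). Fap was at 0 in both -LIF-ESC libraries, and Col5a1 and Mmp2 had lower values in both media, under the limit. Between OSM-ESCs and LIF-ESCs none was called and 5 were higher by the adjusted p alone. At an unadjusted p under 0.05, 16 were higher (9.8% of all genes were), and all 19 had a higher value in OSM-ESCs. The part of these cells in the Hox result was not tested.

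Other marker lists moved in different directions. Calls over all genes were 13.3% and 14.2% higher and 8.09% and 7.86% lower in LIF-ESCs and OSM-ESCs against -LIF-ESCs. A marker could pass the filter only through the group where it was high, so these counts are no support for a direction. Of 12 pluripotent cell markers, 6 were called higher and 1 lower in each comparison (medians 0.96 and 0.93), from Nr0b1 (3.90 in LIF-ESCs) to Dppa3, which fell by 1.41 in LIF-ESCs. Of 8 primitive streak and mesoderm markers, 6 were called lower in each comparison, 0 higher in LIF-ESCs and 1 in OSM-ESCs, and T fell (-5.13 and -5.01). Of 5 trophoblast markers tested, 4 were called lower in LIF-ESCs and 3 in OSM-ESCs, and all 5 had lower values in both media. Of 6 primitive endoderm markers tested, 4 were called higher in each comparison and all 6 had higher values, with Gata4 at 2.01 and 1.58. Of 6 neural markers tested, 3 were called up and 2 down under LIF and 4 up and 0 down under OSM, and Olig2 rose by 4.31 and 4.49. No gene of any of these lists was called between OSM-ESCs and LIF-ESCs. Which cells of the cultures carried the Hox RNA was not tested.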

How the data were processed

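RNA-seq libraries were made from poly-A RNA. The authors deposited 1 table of TPM values (transcript abundance scaled to length and library total), made from reads that, per the labels and the study's methods, were trimmed with Trimmomatic, aligned to mm10 with HISAT2 and counted with featureCounts. The annotation, strand setting and step from counts to TPM are not given in the sources used here. Exon lengths came from GENCODE M21, where 28405 symbols (99.4%) were found once. TPM times length gave whole multiples of 1 read (within 0.02 of a read) in all 6 libraries for 94.9% of genes. Recovered reads give depth, counting intervals and bounds (3 reads over a group). A bound, worded as "at least", takes the count of the other group as exact and is not a 95% limit. Fold intervals are exact binomial 95% intervals on pooled reads. Whether PCR copies were removed is not stated, so they cover counting error only.

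In R 4.3.3, limma 3.58.1 (lmFit, then eBayes with a trend) was run on log2(TPM + 1) of the 18556 genes that reached 1 TPM in 2 or more libraries. One fit held all 3 groups (3 residual degrees of freedom, 5.33 with the prior, median residual SD 0.0862). Benjamini-Hochberg adjustment ran over all genes tested, and a call needed both an adjusted p below 0.05 and a change of 1 or more on the log2 scale. Python 3.11.15 with pandas 2.3.3, scipy 1.17.1 and matplotlib 3.10.9 served for tables and plots. The fit was tested on simulated data first.

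Values in every library are given for members called in any comparison or with a mean of at least 1 TPM in a group, and for Hoxd4, Hoxd11 and others named for their values after these were seen. From each context list (Hox cofactors, Cdx and axial, retinoid, Polycomb and Trithorax, noncoding and neighbouring genes, and markers of 6 cell types) the largest and smallest calls are named, and a few more genes chosen after their values were seen. Values of 1 Hox gene and 1 cofactor are not reported here, though both enter the counts and sums. The members and lists were chosen with earlier results of these data known.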

Additional observations from a re-analysis of the deposited data

Results flagged for a closer look

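Hoxd9 lay on opposite sides of -LIF-ESCs in the 2 cytokine media. Both LIF-ESC libraries lay below both -LIF-ESC libraries (0.449 and 0.623 against 0.910 and 0.654 TPM), as in 29% of all genes. Both OSM-ESC libraries lay above them (1.30 and 1.08 TPM), as in 40.2% of all genes. Neither difference from -LIF-ESCs passed the test, with log2 fold changes of -0.21 (limma adjusted p = 0.281) and 0.30 (0.143) without a filter. The log2 difference between OSM-ESCs and LIF-ESCs was 0.51, with an unadjusted p of 0.0130 and an adjusted p of 0.276 in limma over all genes without a filter, so it did not pass the correction. It rests on 9 to 28 reads per library, and over the alternatives it ranged from 0.43 (without LIF-ESC replicate 1) to 1.12 (voom on recovered reads). The cause was not tested. Groups of 2 libraries were too small for a check of single outlying libraries.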

How the results depend on the processing

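The count of Hox genes called higher was 16 in LIF-ESCs, 19 in OSM-ESCs (both against -LIF-ESCs) and 0 in OSM-ESCs against LIF-ESCs. Leaving out each library gave 14 to 17, 19 to 20 and 0. A filter of 5 TPM, which only 3 members pass, gave 2, 2 and 0. Voom on recovered reads gave 23, 23 and 1, and with at least 10 reads in all (chosen after seeing the data) 30, 31 and 1. A call at an unadjusted p under 0.05 and 1.5-fold gave 23, 23 and 1. A call without a limit on the fold gave 24, 25 and 0, and a pseudocount of 0.1 gave 24, 23 and 0. None was called lower in any comparison under any of these. Counts other than 30, 31 and 1 cover only members passing a filter on TPM, and 25 of the 26 at 1 TPM passed only through LIF-ESCs or OSM-ESCs. Of all genes, 13.3%, 14.2% and 0.0323% were called higher under the main rule. With voom on at least 10 reads these shares were 14.1%, 15% and 0.0999%. For the other rules named here no share of all genes is given, so their counts are no support for a direction. The replicate block (the number in the titles as a block) left 16, 19 and 0. Residuals of same-numbered libraries correlated at -0.04, -0.02 and 0.03 between groups, which shows no common shift by number. With 2 libraries a group this cannot tell whether same-numbered libraries shared a culture round or a batch.

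Rescaling by the median ratio gave 14, 19 and 0 and moved summed levels by more than their spread, with the order of groups kept. For all Hox genes the sums became 16.4 (-LIF-ESCs), 69.1 (LIF-ESCs) and 85.4 TPM (OSM-ESCs), for central paralogues 3.23, 26.6 and 34.4, for anterior 9.20 (-LIF-ESCs) and 11.7 (LIF-ESCs), for posterior 3.92 (-LIF-ESCs) and 30.8 (LIF-ESCs), for Hoxc 21.6 (LIF-ESCs) and 25.8 (OSM-ESCs), and in OSM-ESCs 21.2 for Hoxa, 26.8 for Hoxb and 11.6 for Hoxd. Genes under 3 reads in -LIF-ESCs are limited by depth, and their folds by counting error.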
